A study of Mus musculus with 24 samples.

Results

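Collagen chain genes were followed in mouse left ventricle and lung, on 24 microarrays of 2 genotypes and 2 treatments. Every gene whose symbol is Col, a number, the letter a and a number was taken from the array annotation, which gave 42 of the 18193 annotated genes. Each gene was read from 1 probe set, the one with the highest mean over the 24 arrays, and was tested in a tissue where it lay above a log2 value of 4 in at least 3 of that tissue's 12 arrays. That left 24 of the 42 genes in the left ventricle and 28 in the lung. Of these, 22 were tested in both tissues, Col9a1 and Col9a3 in the left ventricle alone, 6 in the lung alone (Col4a6, Col7a1, Col8a2, Col13a1, Col17a1 and Col20a1), and 12 in neither.

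The mice were CD-1, aged 20 weeks and labelled male. The 4 groups of each tissue, with 3 arrays each, were transgenic mice given particulate matter (dnCREB PM), transgenic mice given phosphate-buffered saline (dnCREB PBS), wild-type mice given particulate matter (wild-type PM) and wild-type mice given saline (wild-type PBS). The transgene encodes dominant negative CREB1, a version of this gene regulator that blocks the normal protein, and is driven by the alpha myosin heavy chain promoter, which is active in cardiomyocytes. The series presents these mice as a model of cardiac failure. The particulate matter (PM) was given at 20 mg/kg with a particle size of 1.9 µm, and tissue was taken at 36 h. The values are log2 expression values on the authors' GCRMA scale, and a log2 change is a difference between 2 group means on that scale.

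Collagens are the chief structural proteins of the extracellular matrix and are built from chains wound into a triple helix. Fibrillar collagens form the rope-like fibres that give tissue its tensile strength, and type IV collagen forms the sheet under epithelium and endothelium and around muscle cells, the basement membrane. FACIT collagens sit on the surface of fibrils, and the remaining types form beaded filaments, networks, anchoring fibrils or transmembrane proteins. In the heart fibroblasts make most fibrillar collagen, and its accumulation between cardiomyocytes is known as fibrosis. The 42 genes held 11 fibrillar, 8 basement membrane, 9 FACIT and 14 other members, of which 7, 7, 5 and 5 were tested in the left ventricle and 7, 8, 4 and 9 in the lung.

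Some arrays did not look as their labels describe. All 12 left ventricles had high cardiomyocyte genes (list mean 15.83 to 16.28) and all 12 lungs had high alveolar epithelial genes (13.46 to 14.16). One Creb1 probe set read 9.05 to 11.44 in dnCREB PM hearts and 9.18 to 12.0 in dnCREB PBS hearts, against 2.51 to 2.86 in wild-type PM hearts and 2.75 to 3.29 in wild-type PBS hearts, so the transgene labels held there. In lungs that probe set read 3.34 to 4.29 in all groups, which leaves the genotype of the lung arrays unchecked. Although all mice were labelled male, Xist, the RNA of the inactive X chromosome, was high in all 6 wild-type hearts (12.05 to 13.05) and in dnCREB PM heart replicate 3 (13.71), and low in the other 5 dnCREB hearts (2.90 to 3.05). In the lung Xist was high in all 3 dnCREB PM arrays, dnCREB PBS replicate 2 and wild-type PM replicates 1 and 3, and low in all 3 wild-type PBS arrays. Lung dnCREB PBS replicates 1 and 3 had neither Xist (2.95 and 3.02) nor the Y-linked gene Eif2s3y (3.18 and 3.17) at a high level. Skeletal muscle genes, which lung should lack, were high (list mean 7.69 to 7.99) in dnCREB PM replicate 3, dnCREB PBS replicates 1 and 3 and wild-type PM replicates 1 and 2, against 2.78 to 4.13 in the other 7 lungs. The squamous epithelium list mean also reached 5.55 in dnCREB PM, 7.39 in dnCREB PBS and 7.5 in wild-type PM lungs. In wild-type PBS lungs it was 2.61 to 2.74.

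The first question was whether the transgene went with another collagen profile in the left ventricle. It did: 12 of the 24 tested genes were higher and 0 were lower in dnCREB PBS than in wild-type PBS hearts (limma, Benjamini-Hochberg adjusted p under 0.05), where 13.2% of the 9962 genes tested were called higher and 5.6% lower. Between dnCREB PM and wild-type PM hearts 11 of the 24 were higher and 0 lower, where 11.4% of all genes tested were higher and 9.13% lower. The same 11 genes were higher under both treatments, against 8.2% of all genes: Col1a1, Col1a2, Col5a1, Col5a2, Col4a1, Col4a2, Col4a3, Col4a4, Col4a5, Col16a1 and Col8a1. Col15a1 was the twelfth under PBS. Over the 24 genes the median log2 change was 1.25 under PBS and 1.09 under PM, while over all genes tested it was 0.09 and 0.02. Col4a3, Col12a1 and Col18a1 had no wild-type array above 4 and were tested only because dnCREB arrays were, so their inclusion raises these counts and medians. The p-values measure the spread between these arrays, and the series text gives 3 animals a group.

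**Figure D1:**
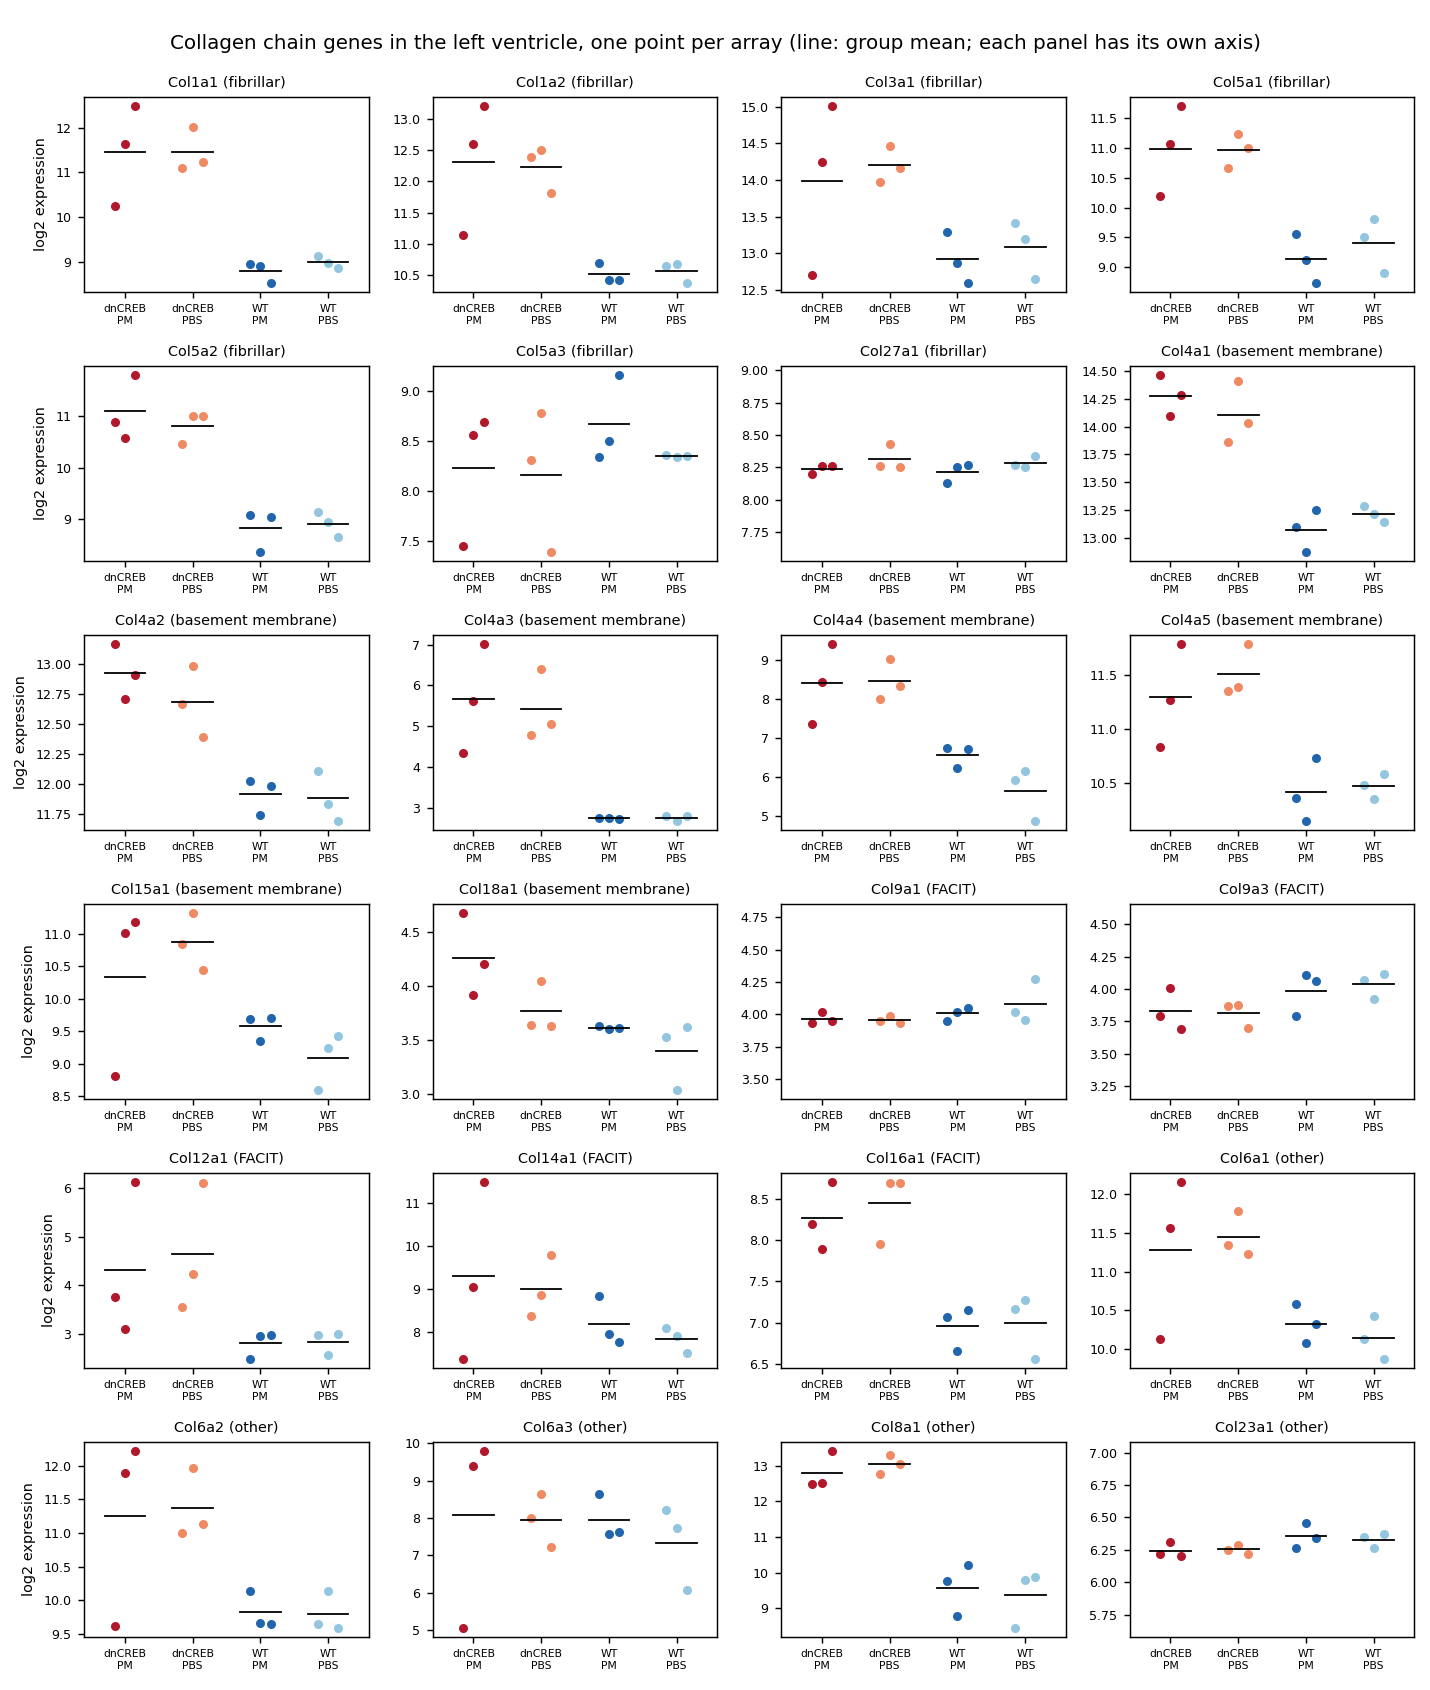
Log2 expression of the 24 collagen genes tested in the left ventricle, one panel per gene with its own vertical axis. Each point is 1 array and the line is the group mean. The groups run dnCREB PM, dnCREB PBS, wild-type (WT) PM and wild-type PBS from left to right. In 13 genes, against 12.3% of all genes, all 6 dnCREB points lie above all 6 wild-type points. The 13 include Col4a3, Col12a1 and Col18a1, which were tested only because dnCREB arrays lay above 4.

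Among the fibrillar genes, 4 of the 7 tested were higher in dnCREB hearts under PBS and the same 4 under PM: both chains of type I collagen and 2 chains of type V. Col1a1, the main chain of type I collagen, read 10.26, 11.63 and 12.48 in dnCREB PM hearts and 11.10, 12.01 and 11.24 in dnCREB PBS hearts, against 8.96, 8.91 and 8.54 in wild-type PM and 9.14, 8.99 and 8.86 in wild-type PBS hearts. Every dnCREB heart lay above every wild-type heart. The log2 change was 2.45 ± 0.46 under PBS (SE, n = 3 each; limma adjusted p = 0.0052), a 5.47-fold difference, and 2.65 ± 0.46 under PM (limma adjusted p = 0.0035), a 6.3-fold difference. Its partner chain Col1a2 changed by 1.66 ± 0.42 under PBS and 1.80 ± 0.42 under PM (adjusted p = 0.0204 and 0.0142), and the PBS call was lost when dnCREB PBS replicate 1 or 2 or wild-type PBS replicate 1 or 3 was left out (adjusted p up to 0.0695).

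Type V collagen lies inside type I fibrils and starts their assembly. Its chain Col5a2 read 10.89, 10.58 and 11.79 in dnCREB PM hearts and 10.46, 10.99 and 10.99 in dnCREB PBS hearts, against 9.08, 8.37 and 9.05 in wild-type PM and 9.13, 8.95 and 8.65 in wild-type PBS hearts. The genotypes did not overlap, and the log2 change was 1.90 ± 0.31 under PBS and 2.25 ± 0.31 under PM (adjusted p = 0.0028 and 0.0012), which is 3.74-fold and 4.76-fold. Col5a1 moved with it, by 1.56 ± 0.37 under PBS and 1.85 ± 0.37 under PM (adjusted p = 0.0162 and 0.0074), with the PBS call lost when dnCREB PBS replicate 2 or 3 or wild-type PBS replicate 3 was left out (adjusted p up to 0.0649). The third type V chain, Col5a3, was not called: its changes were -0.19 under PBS and -0.43 under PM.

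Col3a1, the single chain of type III collagen, which mixes with type I in cardiac fibres, was not called under either treatment. It read 12.70, 14.25 and 15.01 in dnCREB PM hearts and 13.98, 14.46 and 14.16 in dnCREB PBS hearts, against 13.29, 12.87 and 12.60 in wild-type PM and 13.41, 13.20 and 12.65 in wild-type PBS hearts. A single array, dnCREB PM replicate 1, fell within the wild-type range, and the other 5 dnCREB hearts lay above all 6 wild-type hearts. The change was 1.12 ± 0.48 under PBS and 1.07 ± 0.48 under PM (adjusted p = 0.1324 and 0.1451).

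Basement membrane genes were called most often, 6 of 7 under PBS and 5 of 7 under PM, where 13.2% and 11.4% of all genes were higher. All 5 tested type IV chains were among them under both treatments. Col4a3 and Col18a1 were tested only because dnCREB hearts lay above 4, which raises the Col4a3 share of these counts, and Col4a6 was not tested. Col4a3 and Col4a4 encode chains that join Col4a5 in a network best known from the kidney glomerulus and the lung alveolus. Col4a3 read 4.35, 5.61 and 7.01 in dnCREB PM hearts and 4.79, 6.41 and 5.06 in dnCREB PBS hearts, against 2.74, 2.74 and 2.73 in wild-type PM and 2.79, 2.68 and 2.79 in wild-type PBS hearts. All 6 wild-type values lay in the low range where the array does not resolve levels, so the size is a bound: with 4 as the floor, Col4a3 was at least 3.15-fold higher under PM (adjusted p = 0.0066) and at least 2.68-fold higher under PBS (adjusted p = 0.0101). Its other probe set, above 4 in 1 heart, moved by 0.50 under PBS and 1.07 under PM, and with the mean of both probe sets the PBS call was lost (1.58, adjusted p = 0.1136).

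Col4a4 had measurable levels in both genotypes. It read 7.37, 8.44 and 9.41 in dnCREB PM hearts and 8.01, 9.02 and 8.34 in dnCREB PBS hearts, against 6.74, 6.24 and 6.72 in wild-type PM and 5.93, 6.15 and 4.88 in wild-type PBS hearts. The lowest dnCREB heart was above the highest wild-type heart, with changes of 2.80 ± 0.50 under PBS and 1.84 ± 0.50 under PM (adjusted p = 0.004 and 0.0261). The PM call was lost when dnCREB PM replicate 2 or 3 or any 1 of the wild-type PM hearts was left out (adjusted p up to 0.0838). Its other 2 probe sets moved the same way, by 1.05 and 3.54 under PBS and by 1.59 and 3.03 under PM. Among the other type IV chains, Col4a5 changed by 1.04 ± 0.24 under PBS and 0.88 ± 0.24 under PM (adjusted p = 0.0133 and 0.0266). The PBS call was lost without dnCREB PBS replicate 3 (adjusted p = 0.0569) and the PM call without dnCREB PM replicate 3 or wild-type PM replicate 1 or 2 (adjusted p up to 0.0915).

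Col4a1 and Col4a2 form the type IV network found in nearly all basement membranes. Their changes were small but the spread between arrays was smaller: Col4a1 changed by 0.88 ± 0.16 under PBS and 1.20 ± 0.16 under PM (adjusted p = 0.0046 and 0.00096), and Col4a2 by 0.80 ± 0.18 (adjusted p = 0.0131) and 1.02 ± 0.18 (adjusted p = 0.0044). These are 1.84-fold and 2.3-fold for Col4a1 and 1.75-fold and 2.03-fold for Col4a2. For both genes all 6 dnCREB hearts were above all 6 wild-type hearts. The PBS call of Col4a2 was lost without wild-type PBS replicate 3 (adjusted p = 0.0533). Col4a6 lay just under the filter in the heart, its third-highest array at 3.94, and was not tested there.

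Col4a3 with Col4a4, and Col4a1 with Col4a2, lie head to head on opposite strands, so each pair of genes that moved together starts within the same stretch of DNA. In the RefSeq annotation of GRCm38.p6 the Col4a4 gene starts on the minus strand at 82587034 of chromosome 1 and Col4a3 on the plus strand at 82586921, so that the annotated genes overlap by 114 bases. On chromosome 8, Col4a1 starts on the minus strand at 11312889 and Col4a2 on the plus strand at 11312805, with an overlap of 85 bases. The windows below run 5′ to 3′ on the minus strand, from 250 bases before to 50 bases after the start of a RefSeq transcript of Col4a4 and of Col4a1, at chr1:82586800-82587099 and chr8:11312777-11313076. They are shown because each holds the start of both genes of its pair, and capitals mark the matches to the 6 motifs searched on both strands (CCAAT, the CCAAT box; TGACGTCA, the full site that CREB proteins bind; TGACG, its shorter form, which lies within it; GGGCGG, the GC box; TATAAA, the TATA box; and CACGTG, the E-box).
Col4a4: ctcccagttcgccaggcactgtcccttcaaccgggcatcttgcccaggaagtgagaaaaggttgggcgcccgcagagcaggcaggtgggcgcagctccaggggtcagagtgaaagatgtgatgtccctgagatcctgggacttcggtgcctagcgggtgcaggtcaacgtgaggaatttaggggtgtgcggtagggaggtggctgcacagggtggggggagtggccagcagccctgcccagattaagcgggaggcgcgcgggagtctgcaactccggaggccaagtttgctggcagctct
Col4a1: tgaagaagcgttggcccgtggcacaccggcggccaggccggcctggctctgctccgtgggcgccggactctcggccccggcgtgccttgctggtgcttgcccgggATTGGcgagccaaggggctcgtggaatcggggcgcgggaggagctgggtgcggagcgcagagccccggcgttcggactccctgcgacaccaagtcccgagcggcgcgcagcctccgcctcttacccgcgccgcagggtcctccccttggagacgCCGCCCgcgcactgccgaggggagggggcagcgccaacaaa
The Col4a4 window held 0 of these motifs. The Col4a1 window held 1 match to CCAAT and 1 to GGGCGG, each read on the opposite strand. CCAAT occurred in 37.4% of all 32851 RefSeq windows of this length and in 36.1% of the 36 windows of collagen genes, and GGGCGG in 35.7% and 61.1%. TGACGTCA occurred in 1.79% of all windows and in 1 of the 36 collagen windows, and TGACG in 20.8% and 11.1%. A window was found for 33 of the 42 genes. Col4a5 and Col4a6, the third such pair, start 1274 bases apart on the X chromosome and share no window.

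The basement membrane class also holds Col15a1 and Col18a1, which carry sugar side chains and release fragments that act on blood vessels. Col15a1 was higher under PBS alone, by 1.78 ± 0.54 (adjusted p = 0.0425), and its change under PM was 0.75 ± 0.54 (adjusted p = 0.3595). The PBS call was lost in 13 of 21 other settings, among them leaving out any 1 of the dnCREB PBS or wild-type hearts, with an adjusted p of up to 0.1309. Col18a1 changed by 0.37 ± 0.21 and 0.65 ± 0.21 and was not called under either treatment (adjusted p = 0.242 under PBS and 0.0522 under PM).

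Among FACIT genes 1 of 5 was called under each treatment, where 13.2% of all genes were higher under PBS and 11.4% under PM. Col16a1, which links fibrils to other matrix, read 8.20, 7.90 and 8.71 in dnCREB PM hearts and 7.96, 8.70 and 8.70 in dnCREB PBS hearts, against 7.07, 6.65 and 7.15 in wild-type PM and 7.16, 7.28 and 6.56 in wild-type PBS hearts. The genotypes were separate, with a change of 1.46 ± 0.28 under PBS and 1.31 ± 0.28 under PM (adjusted p = 0.0061 and 0.0101). Col14a1 and Col12a1, which bind the surface of type I fibrils, were not called. Col14a1 changed by 1.18 ± 0.83 under PBS, where the groups did not overlap (8.36 to 9.79 in dnCREB against 7.5 to 8.09 in wild-type hearts). It read 7.37, 9.04 and 11.49 in dnCREB PM hearts, against 8.84, 7.94 and 7.77 in wild-type PM hearts, and these groups overlapped. A second probe set, above 4 in 12 hearts, moved by 1.04 under PBS and 1.41 under PM. Col9a1 and Col9a3, chains of a cartilage collagen, stayed near the filter level with changes between -0.22 and -0.04.

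Of the 5 other genes tested, Col8a1 was the one called, under both treatments, as were 8.2% of all genes. On the probe sets used, its fitted change was the largest of the 24 under both treatments, with the size of the Col4a3 change known only as a bound. Col8a1 encodes a short-chain collagen of vessel walls that forms open networks. It read 12.49, 12.51 and 13.41 in dnCREB PM hearts and 12.78, 13.29 and 13.04 in dnCREB PBS hearts, against 9.76, 8.78 and 10.21 in wild-type PM and 8.46, 9.79 and 9.87 in wild-type PBS hearts. The lowest dnCREB heart stood above the highest wild-type heart by more than the whole spread of the dnCREB hearts, and the change was 3.66 ± 0.45 under PBS (12.6-fold, adjusted p = 0.00062) and 3.22 ± 0.45 under PM (9.33-fold, adjusted p = 0.0012). Its other 2 probe sets moved by 4.65 and 3.51 and by 2.49 and 1.91, where the second of them was above 4 in 2 of the 12 hearts.

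The 3 type VI chains, which form beaded filaments around cells, were not called. Col6a1 changed by 1.31 ± 0.42 under PBS and 0.96 ± 0.42 under PM (adjusted p = 0.0547 and 0.1388), and Col6a2 by 1.58 ± 0.57 and 1.43 ± 0.57 (adjusted p = 0.0804 and 0.1046). Col6a3 changed by 0.62 ± 1.08 and 0.15 ± 1.08. It read 5.06, 9.40 and 9.79 in dnCREB PM hearts and 8.0, 8.65 and 7.22 in dnCREB PBS hearts, against 8.63, 7.57 and 7.61 in wild-type PM and 8.21, 7.73 and 6.07 in wild-type PBS hearts, and the genotypes overlapped. Averaged over both treatments, a comparison added after the data were seen, 17 of the 24 genes were higher and 0 lower, where 22.3% of all genes were higher and 13.6% lower. Beyond the 11 genes called under both treatments these were Col3a1 at 1.09, Col6a1 at 1.13, Col6a2 at 1.51, Col15a1 at 1.27, Col12a1 at 1.65 and Col18a1 at 0.51 (adjusted p = 0.0287, 0.0141, 0.0152, 0.025, 0.0357 and 0.022), the last 2 of which passed the filter only through dnCREB hearts. These calls were lost for Col3a1 and Col15a1 in 7 of 20 other settings each, for Col12a1 in 8 of 18 and for Col18a1 in 2 of 18. Leaving out 1 heart ended the Col3a1 call for dnCREB PM replicate 2, dnCREB PBS replicates 2 and 3, wild-type PM replicates 2 and 3 and wild-type PBS replicate 3. It ended the Col15a1 call for dnCREB PM replicates 2 and 3, dnCREB PBS replicate 2, wild-type PM replicate 2 and wild-type PBS replicate 1, and the Col12a1 call for dnCREB PBS replicate 3 and each wild-type heart. In 13 of the 24 genes, against 12.3% of all genes, every dnCREB heart lay above every wild-type heart. The 13 include Col4a3, Col12a1 and Col18a1, which had no wild-type heart above the filter level.

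**Figure D2:**
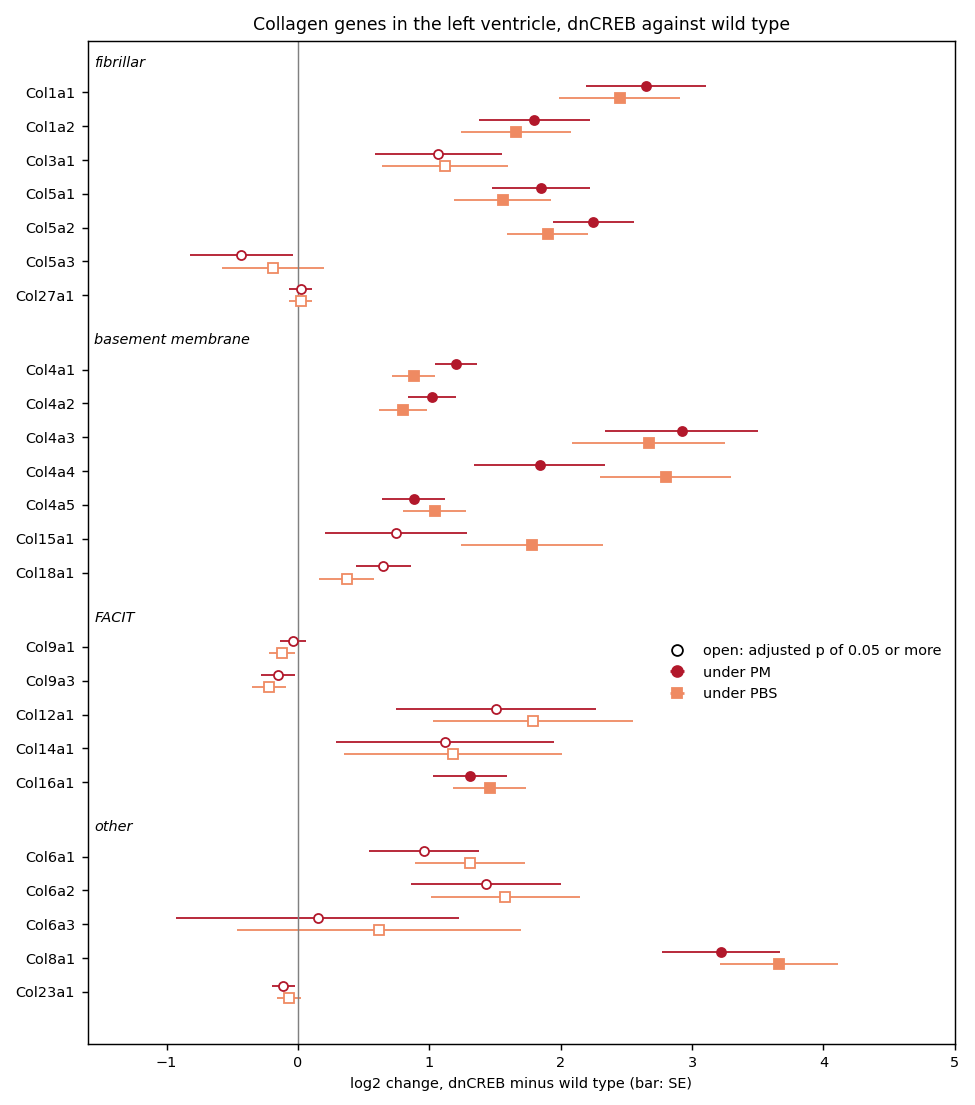
Log2 change of each collagen gene tested in the left ventricle, dnCREB minus wild type, under PM (circles) and PBS (squares), with SE bars and n = 3 arrays a group. Filled symbols have an adjusted p under 0.05; all of them lie right of 0, with Col8a1 at 3.22 and 3.66 farthest from it.

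The size of the change varied between dnCREB hearts, most of all under PM. Set against the mean of the wild-type PBS hearts, the median over the 24 genes was 0.47, 1.19 and 2.06 in dnCREB PM replicates 1, 2 and 3 and 0.89, 1.38 and 1.28 in the dnCREB PBS hearts, against 0.14, -0.07 and 0.07 in the wild-type PM hearts and 0.07, 0.02 and -0.10 in the wild-type PBS hearts. Replicate 1 of dnCREB PM was the lowest of its group for 16 genes and replicate 3 the highest for 18. Without replicate 1 the PM comparison called 15 genes, and without replicate 3 it called 9.

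The Xist split lay along the genotypes in the heart. All 3 dnCREB PBS hearts were low and all 3 wild-type PBS hearts high, so that under PBS genotype and Xist class cannot be told apart. Under PM, dnCREB replicate 3 had high Xist like the 3 wild-type hearts. Set alone against those 3 hearts, it differed by 3.83 for Col8a1, 3.68 for Col1a1, 1.20 for Col4a1, 0.03 for Col5a3 and -0.30 for Col9a3. A single heart gives no spread between dnCREB hearts, so no calls are given for this comparison. The comparison was chosen after the data were seen and rests on the dnCREB PM heart with the highest collagen values. With Xist class as a covariate, which leans on that same heart, 11 genes were called under PBS and 14 under PM. Col4a1 and Col4a2 then lost their PBS calls, at 0.88 (adjusted p = 0.1614) and 0.77 (adjusted p = 0.2867).

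**Figure D3:**
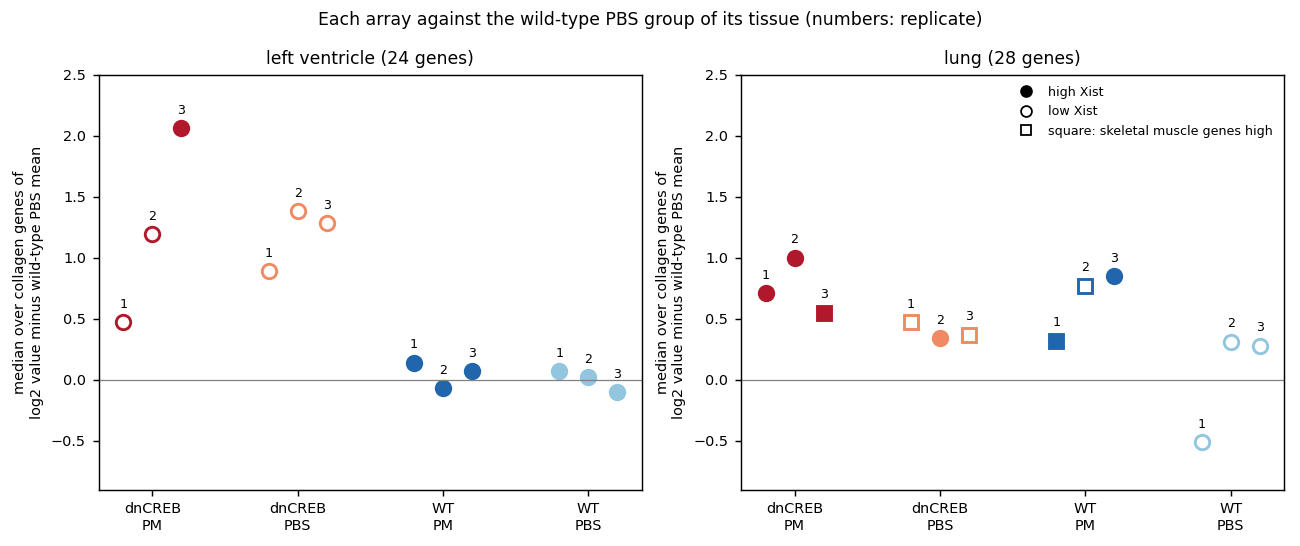
Median over the collagen genes tested in each tissue of an array's log2 value minus the wild-type PBS mean, for the left ventricle and the lung. Each symbol is 1 array with its replicate number, filled where Xist was high and square where skeletal muscle genes were high (lung only); the dnCREB hearts span 0.47 to 2.06, and lung wild-type PBS replicate 1 lies lowest at -0.51.

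Some of the genes that process and bind collagen were also higher in the dnCREB heart. Of 16 tested genes for folding and modifying collagen chains, 4 were higher under PBS and 5 under PM, with 0 lower, where 13.2% and 11.4% of all genes were higher. They were led by P3h2, a prolyl 3-hydroxylase, at 4.18 under PBS and 3.14 under PM (adjusted p = 0.0017 and 0.0072). P3h3 changed by 2.08 and 1.95 and Ppib, a proline isomerase, by 0.87 and 1.02. P4hb, a subunit of prolyl 4-hydroxylase, changed by 0.79 and 0.54. P4ha1, the catalytic subunit, was called under PM alone at 1.24 (adjusted p = 0.0255). P3h4 changed by -0.54 and -0.77, and was called lower in the comparison averaged over both treatments, at -0.66 (adjusted p = 0.0275). Median change over the 16 was 0.36 under each treatment.

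Of the 3 tested genes for removing propeptides, the enhancers Pcolce and Pcolce2 were higher under both treatments, as were 8.2% of all genes. Pcolce2 changed by 2.12 and 2.51 and Pcolce by 1.66 and 1.62, and the protease Bmp1 was not called. Lysyl oxidases cross-link collagen outside the cell. Loxl3 changed by 2.58 under PBS and 1.69 under PM, Loxl1 by 2.09 and 1.98, and Lox by 2.83 and 4.35, the first of which was not called (adjusted p = 0.0805) and the second was (adjusted p = 0.0144). Of 4 tested collagen receptors, 3 were higher under both treatments, as were 8.2% of all genes. Mrc2, which takes up collagen for breakdown, changed by 1.84 and 1.78. The integrin Itga1 changed by 1.15 and 1.54, and Ddr2, the fibroblast discoidin receptor, by 1.30 and 0.92.

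Markers of several cell types moved with these genes. Of 6 fibroblast markers 4 were higher in dnCREB hearts under both treatments, against 8.2% of all genes (Dcn by 0.68 and 0.73, Pdgfra by 1.15 and 1.05, Tcf21 by 1.35 and 1.29, Dpt by 1.13 and 1.03). The log2 of their summed level was 15.56 to 16.09 in dnCREB PM and 15.77 to 15.91 in dnCREB PBS hearts, against 14.94 to 15.24 in wild-type PM and 14.93 to 15.12 in wild-type PBS hearts, with no overlap between genotypes. In a bulk sample, more cells of a type and more RNA per cell cannot be told apart. Periostin (Postn), a matrix protein of activated fibroblasts, changed by 5.49 under PBS and 4.52 under PM. The mean of the activated fibroblast list, to which Postn belongs, rose by less. It was 7.75 to 8.56 in dnCREB PM and 7.9 to 8.11 in dnCREB PBS hearts. In wild-type hearts it was 6.75 to 7.14 under PM and 6.5 to 6.87 under PBS. Comp, a cartilage matrix protein, changed by 7.07 and 6.28 with no other cartilage marker called.

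Of 6 macrophage markers, 1 was higher under PBS and 4 under PM, where 13.2% and 11.4% of all genes were higher. Endothelial markers, whose cells make type IV collagen, were called in 0 of 6 under both treatments, and their summed log2 level was 13.21 to 14.52 in dnCREB PM and 12.86 to 13.45 in dnCREB PBS hearts, against 13.22 to 13.34 in wild-type PM and 13.13 to 13.37 in wild-type PBS hearts. Cardiomyocyte markers were lower in 1 of 8 under PBS (Ryr2, -0.96) and 2 of 8 under PM (Ryr2, -0.59, and Tnni3, -0.41). Of all genes, 5.6% were lower under PBS and 9.13% under PM. The part of these cell types in the collagen changes was not tested.

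The second question was whether PM moved collagen genes in the heart. No collagen gene was called for PM against PBS in dnCREB hearts (0.0% of all genes called), in wild-type hearts (0.01%) or in the interaction of genotype and PM (0.0%). At an unadjusted p under 0.05 the counts were 1, 0 and 0 of 24, against 4.92%, 1.47% and 3.62% of all genes. The smallest p-values in dnCREB hearts belonged to Col18a1 at 0.49, Col4a2 at 0.25 and Col4a1 at 0.18 (adjusted p = 0.9657, 0.9657 and 0.9784). In wild-type hearts they belonged to Col4a4 at 0.91, Col18a1 at 0.22 and Col15a1 at 0.49, of which Col4a4 had an adjusted p of 1.0. The interaction estimates with the smallest p were 0.32 for Col4a1, -0.96 for Col4a4 and -1.03 for Col15a1 (adjusted p = 0.9801 for each). A p that misses the threshold does not show that PM left these genes unchanged.

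The lung, in which the Creb1 probe set that marked the transgene was low, was the second tissue. No collagen gene was called between the genotypes, under PBS (0.0259% of 11600 genes called) or under PM (0.0%). Before adjustment, 7 of 28 genes under PBS and 0 under PM had a p under 0.05, against 5.42% and 3.97% of all genes. Under PBS the smallest p-values belonged to Col4a6 at 1.13 ± 0.29, Col12a1 at 1.43 ± 0.40 and Col14a1 at 1.08 ± 0.32 (adjusted p = 0.5828, 0.6504 and 0.7064). Under PM they belonged to Col7a1 at 0.62, Col6a3 at 0.44 and Col4a5 at 0.37 (adjusted p = 0.901 for each).

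Col12a1 read 8.21, 8.53 and 8.34 in dnCREB PBS lungs, against 6.01, 7.42 and 7.35 in wild-type PBS lungs. Col4a6, a type IV chain of epithelial and smooth muscle basement membranes, read 7.02, 6.65 and 7.21 in dnCREB PBS lungs, against 5.75, 6.25 and 5.50 in wild-type PBS lungs. The groups did not overlap for either gene. The higher Col4a6 values, 7.02 and 7.21, came from dnCREB PBS replicates 1 and 3. Those lungs had high skeletal muscle genes, and no wild-type PBS lung did. Replicate 2, without high skeletal muscle genes, read 6.65, above the highest wild-type PBS lung at 6.25. The wild-type PM lungs, of which replicates 1 and 2 had high skeletal muscle genes, read 6.11 to 6.53. The part of skeletal muscle in the Col4a6 values was not tested. Wild-type PBS replicate 1 was the lowest lung of the 12 for Col12a1, and it was the lowest of its group for 20 of the 28 genes, with a median of -0.51 against the group mean where replicates 2 and 3 had 0.31 and 0.28. Its endothelial markers were also low, with a list mean of 9.87 against 11.45 and 11.49 in the other 2 arrays. The fibroblast list mean was 10.98 to 11.49 in dnCREB PBS lungs, against 10.71 to 10.8 in wild-type PBS lungs. The part of fibroblasts in these genotype values was not tested.

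**Figure D4:**
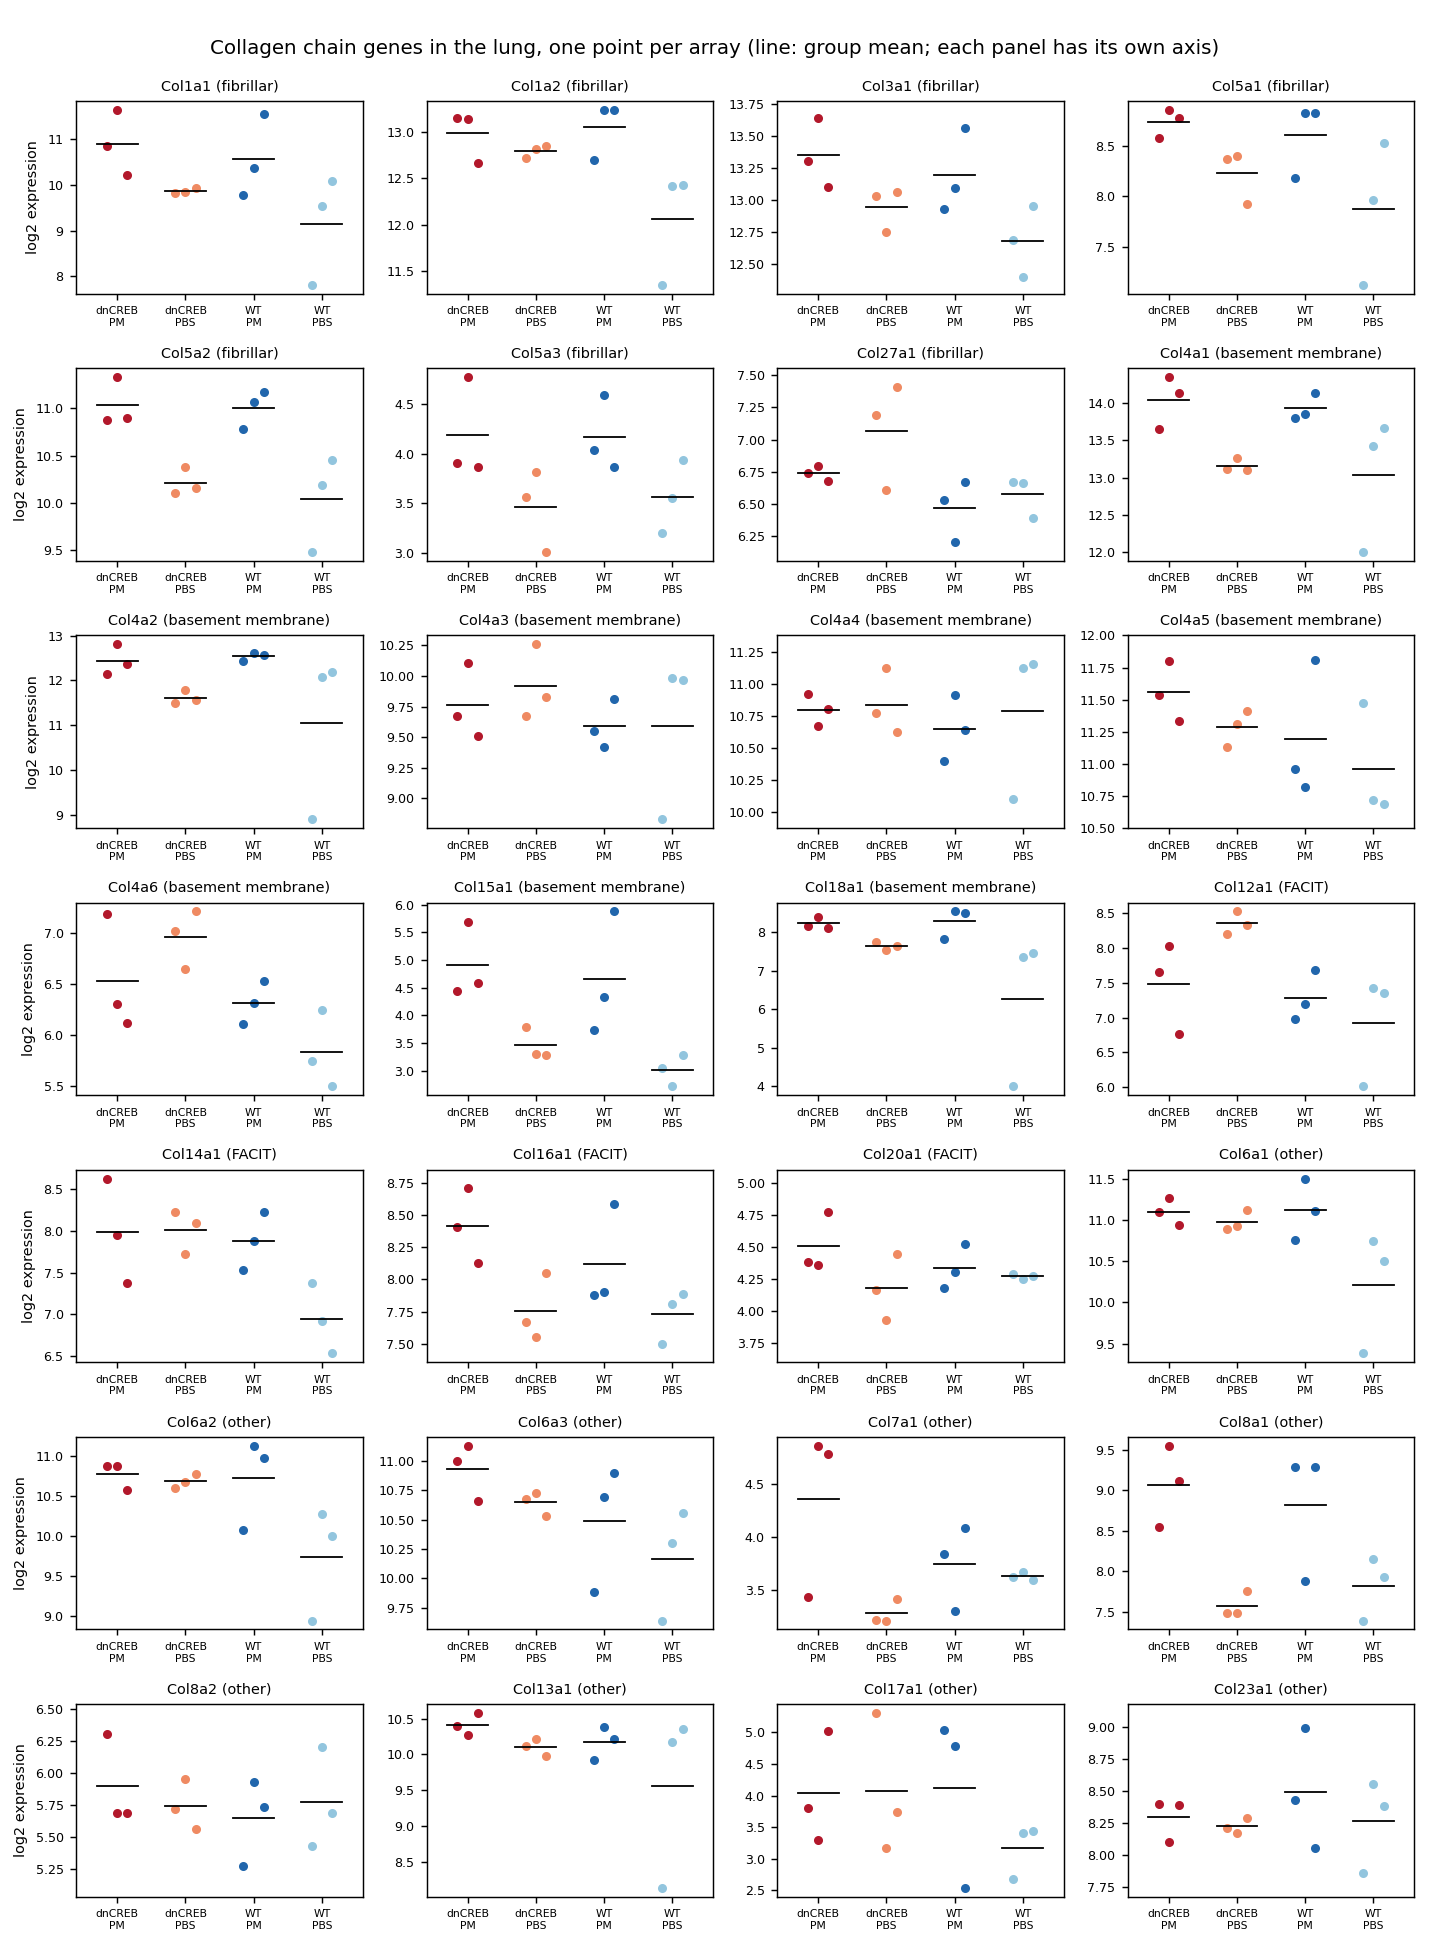
Log2 expression of the 28 collagen genes tested in the lung, one panel per gene with its own vertical axis, drawn as for the left ventricle with 1 point per array, a line at the group mean and wild type written WT. In Col5a2 and Col18a1, 2 of the 28 genes against 5.01% of all genes, all 6 PM points lie above all 6 PBS points. The first wild-type PBS point is low in many panels.

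PM against PBS in the lung gave no call in either genotype taken alone. In dnCREB lungs 0 of 28 genes were called, where 0.00862% of all genes were, and 21 of the 28 estimates were positive with a median of 0.29 against 0.07 over all genes. In wild-type lungs 0 of 28 were called, where 2.39% of all genes were, and 25 estimates were positive with a median of 0.61 against 0.11. Col5a3, Col7a1 and Col15a1 had no PBS lung above 4 and were tested only because PM lungs were, which raises these counts and medians. Leaving out wild-type PBS replicate 1 brought the wild-type median to 0.41 with 22 positive. Before adjustment, 7 genes in dnCREB and 13 in wild-type lungs had a p under 0.05, against 9.72% and 26.3% of all genes. Leaving out wild-type PM replicate 1 called Col15a1 and Col6a2, and leaving out wild-type PBS replicate 3 called Col5a2, in the wild-type comparison.

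The smallest p-values in dnCREB lungs belonged to Col8a1 at 1.50 ± 0.38, Col5a2 at 0.83 ± 0.24 and Col7a1, the anchoring fibril collagen, at 1.08 ± 0.33 (adjusted p = 0.3077, 0.3237 and 0.34). Col7a1 was under 4 in all 6 PBS lungs, so that its estimate is set against an unresolved level. In wild-type lungs they belonged to Col5a2 at 0.96 ± 0.24, Col1a2 at 0.99 ± 0.28 and Col15a1 at 1.63 ± 0.49 (adjusted p = 0.0589, 0.0775 and 0.0837). The interaction of genotype and PM was called for 0 genes (0.00862% of all genes), or 1 of 28 before adjustment against 5.22%, and its smallest p-value was for Col4a6 at -0.91 (adjusted p = 0.8314).

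When the PM difference was averaged over both genotypes, again a comparison added after the data were seen, 3 of the 28 genes were higher and 0 lower, where 5.41% of all genes were higher and 1.35% lower. Col5a2 read 10.88, 11.33 and 10.90 in dnCREB PM and 10.78, 11.07 and 11.17 in wild-type PM lungs, against 10.10, 10.38 and 10.16 in dnCREB PBS and 9.48, 10.19 and 10.45 in wild-type PBS lungs. All 6 PM lungs lay above all 6 PBS lungs, as they did for 5.01% of all genes, and the change was 0.90 ± 0.17 (1.86-fold, adjusted p = 0.0193). Col8a1 read 8.54, 9.55 and 9.11 in dnCREB PM and 9.29, 7.88 and 9.29 in wild-type PM lungs, against 7.48, 7.48 and 7.75 in dnCREB PBS and 7.39, 8.15 and 7.93 in wild-type PBS lungs. A single PM lung, wild-type replicate 2, fell within the PBS range, and the change was 1.25 ± 0.27 (2.38-fold, adjusted p = 0.0259).

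Col15a1 read 4.45, 5.68 and 4.58 in dnCREB PM and 3.74, 4.33 and 5.88 in wild-type PM lungs, against 3.80, 3.30 and 3.28 in dnCREB PBS and 3.06, 2.72 and 3.28 in wild-type PBS lungs. All 6 PBS lungs were under 4, so the gene passed the filter only through PM lungs. With 4 as the floor it was at least 1.88-fold higher in dnCREB and at least 1.57-fold higher in wild-type PM lungs (averaged change 1.54 ± 0.34, adjusted p = 0.0281).

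Of the genes fixed for mention, Col1a1 read 10.84, 11.64 and 10.21 in dnCREB PM and 9.77, 10.37 and 11.54 in wild-type PM lungs, against 9.83, 9.85 and 9.93 in dnCREB PBS and 7.81, 9.53 and 10.08 in wild-type PBS lungs. The dnCREB groups did not overlap and the wild-type groups did, and its averaged change of 1.22 was not called (adjusted p = 0.0907). Col3a1 read 13.30, 13.64 and 13.10 in dnCREB PM and 12.93, 13.09 and 13.56 in wild-type PM lungs, against 13.03, 12.75 and 13.06 in dnCREB PBS and 12.69, 12.40 and 12.95 in wild-type PBS lungs, and its change of 0.45 was not called either (adjusted p = 0.0913). Col4a1 at 0.89 (adjusted p = 0.0581) and Col1a2 at 0.59 (adjusted p = 0.0913) also missed the threshold. In the separate genotypes Col4a2 changed by 0.82 in dnCREB and 1.49 in wild-type lungs, Col5a1 by 0.51 and 0.74, Col6a1 by 0.12 and 0.91, Col6a2 by 0.09 and 0.99, and Col6a3 by 0.28 and 0.32, none called.

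Other cell type lists also differed between PM and PBS lungs. The macrophage list mean was 9.38 to 9.83 in dnCREB PM and 9.99 to 10.87 in wild-type PM lungs, against 9.0 to 9.09 in dnCREB PBS and 8.56 to 9.34 in wild-type PBS lungs, with no overlap within a genotype. In the averaged comparison 3 of the 6 macrophage markers were higher, where 5.41% of all genes were. The adipocyte list mean was 6.05 to 7.52 in wild-type PM lungs against 3.84 to 5.71 in wild-type PBS lungs, and 6.27 to 6.40 in dnCREB PM against 5.41 to 9.46 in dnCREB PBS lungs, with 0 of its 3 tested markers called. The fibroblast list mean was 10.93 to 11.27 in wild-type PM against 10.71 to 10.8 in wild-type PBS lungs, without overlap. In dnCREB lungs it was 11.2 to 11.34 under PM and 10.98 to 11.49 under PBS, and the groups overlapped. The activated fibroblast list mean was 7.62 to 8.13 in wild-type PM against 7.19 to 7.61 in wild-type PBS lungs. In dnCREB lungs it was 7.63 to 8.28 under PM and 7.45 to 7.69 under PBS. The part of these cells in the collagen values was not tested.

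The 3 averaged calls depended on which lungs were used. Without the 5 lungs of high skeletal muscle genes, the estimates were no smaller, at 0.93 for Col5a2, 1.52 for Col8a1 and 2.31 for Col15a1. That left only replicate 3 of wild-type PM and replicate 2 of dnCREB PBS in their groups, so no calls are given. With Xist class as a covariate 0 were called, at 0.84, 0.82 and 1.46. PM and Xist class nearly coincided in the lung. Among PM lungs only wild-type replicate 2 was low in Xist, and among PBS lungs only dnCREB replicate 2 was high. Leaving out 1 lung gave 0 calls without dnCREB PM replicate 2, dnCREB PBS replicate 1 or dnCREB PBS replicate 3, and 1 call without dnCREB PBS replicate 2. It gave 6 calls without wild-type PBS replicate 1 and 5 without wild-type PBS replicate 3. Col17a1, a transmembrane collagen of squamous epithelium, read 3.81, 3.29 and 5.03 in dnCREB PM, 5.31, 3.17 and 3.74 in dnCREB PBS, 5.04, 4.78 and 2.54 in wild-type PM and 2.68, 3.40 and 3.44 in wild-type PBS lungs. All 4 of its values above 4 came from lungs of high skeletal muscle genes. The squamous epithelium list was also high in some lungs of the dnCREB PM, dnCREB PBS and wild-type PM groups. Among the lung genes for folding, propeptide removal, cross-linking or collagen receptors, 0 were called in the genotype comparisons or for PM in either genotype taken alone. In the averaged PM comparison 1 of 5 receptors was called, where 5.41% of all genes were higher. It was Ddr1, an epithelial discoidin receptor, at 0.49 (limma adjusted p = 0.0469).

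The last comparison asked whether the genotype difference itself differed between left ventricle and lung, by fitting all 24 arrays. Under PBS all dnCREB hearts were low in Xist and all wild-type hearts high, so genotype and Xist class cannot be told apart there. All wild-type PBS lungs were low, and of the dnCREB PBS lungs replicate 2 was high. Under PM, dnCREB heart replicates 1 and 2 and wild-type lung replicate 2 were low, and the other arrays high. The heart minus lung difference of Xist was -13.41 under PBS and -9.23 under PM. Of 30 genes past the filter in either tissue, 6 differed under PBS, 5 with a larger change in the heart, where 5.84% of 12318 genes had a larger change in the heart, 2.18% a larger one in the lung and 8.01% differed in either direction. Under PM 5 differed, all with a larger change in the heart, against 5.13% of all genes (8.15% in either direction and 3.02% toward the lung). Col8a1, Col4a3 and Col5a2 differed under both treatments. For Col8a1 the difference was 3.91 ± 0.61 under PBS and 2.97 ± 0.61 under PM (adjusted p = 0.00047 and 0.0051), with lung changes of -0.25 and 0.25. For Col5a2 it was 1.74 ± 0.41 (adjusted p = 0.0114) and 2.22 ± 0.41 (adjusted p = 0.0021), with lung changes of 0.17 and 0.03.

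For Col4a3 the tissues differed by 2.34 ± 0.68 under PBS and 2.75 ± 0.68 under PM (adjusted p = 0.0386 and 0.0157). Col4a3 was far above the filter in every lung, with lung changes of 0.33 and 0.17, but its wild-type hearts lay below the filter level, so the size of these differences is not resolved. Under PBS Col4a4 differed by 2.76 ± 0.59 (adjusted p = 0.0057) and Col16a1 by 1.43 ± 0.38 (adjusted p = 0.0236), and under PM Col1a2 differed by 1.87 ± 0.52 (adjusted p = 0.0334) and Col5a1 by 1.72 ± 0.51 (adjusted p = 0.0437). Col4a6 went the other way under PBS, with a difference of -1.15 ± 0.33 (adjusted p = 0.0344) beside its lung change of 1.13, which was not called in the lung alone, and the gene lay under the filter in the heart. In dnCREB PBS lungs Col4a6 read 7.02 and 7.21 in replicates 1 and 3, which had high skeletal muscle genes. Replicate 2, which did not, read 6.65, against at most 6.25 in wild-type PBS lungs. The part of skeletal muscle was not tested.

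Col1a1 was not called in this comparison although its heart changes were among the largest, its lung changes being 0.73 under PBS and 0.33 under PM. Without the 5 lungs of high skeletal muscle genes, a single lung was left in the wild-type PM and in the dnCREB PBS group, so no calls are given. Under PBS the count of genes that differed was 3 when lung dnCREB PBS replicate 1, lung wild-type PBS replicate 3, heart dnCREB PBS replicate 2 or 3, or heart wild-type PBS replicate 3 was left out. Under PM it was 3 when replicate 2 or 3 of the heart dnCREB PM, heart wild-type PM, lung dnCREB PM or lung wild-type PM group was left out, 8 without lung wild-type PBS replicate 1 and 10 without heart dnCREB PM replicate 1.

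**Figure D5:**
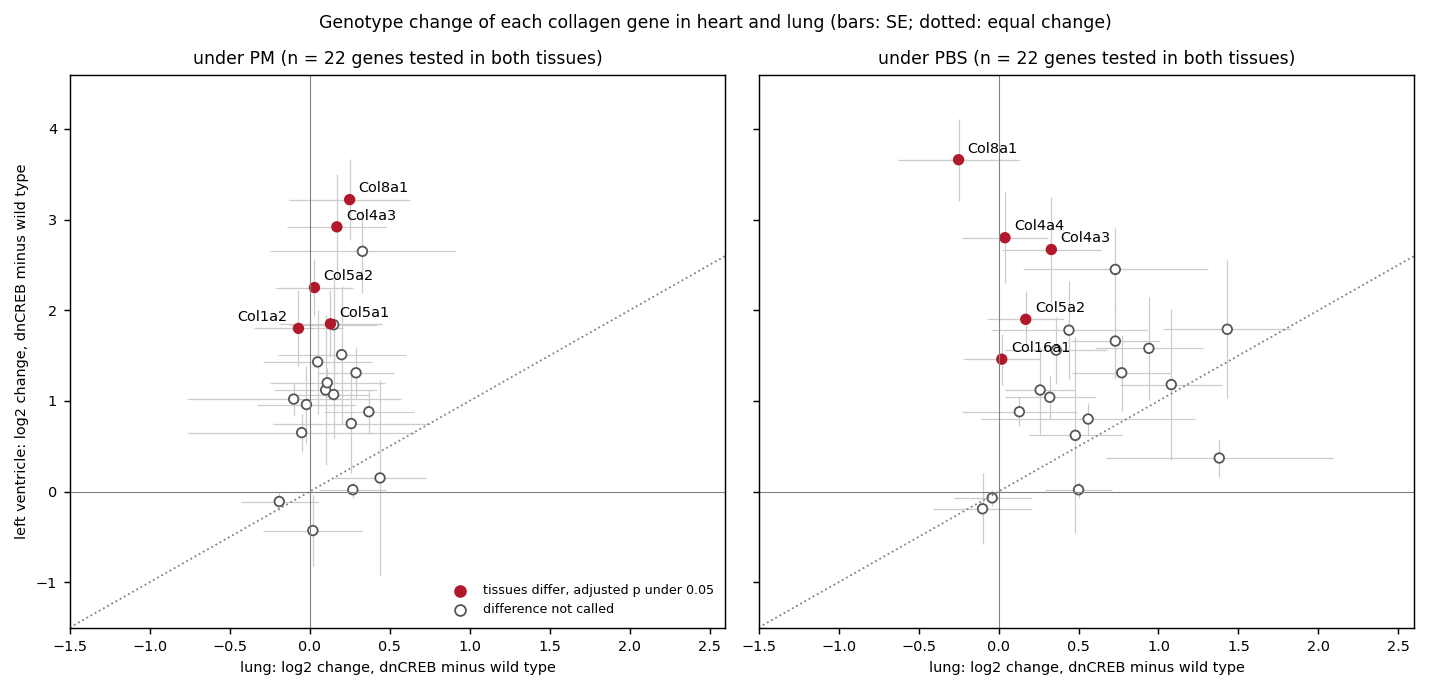
Log2 change, dnCREB minus wild type, for the 22 collagen genes tested in both tissues, in the left ventricle (vertical axis) and the lung (horizontal axis), under PM (left) and PBS (right), with SE bars and a dotted line of equal change. Filled points are genes whose change differed between the tissues at an adjusted p under 0.05; Col8a1 lies at 3.22 in heart and 0.25 in lung under PM and at 3.66 and -0.25 under PBS.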

How the data were processed

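The authors deposited log2 expression values for 45037 Affymetrix probe sets on 24 arrays, made with GCRMA per the submitters' processing notes; its version and the array scans are not given in the sources used here. Total RNA was isolated with Trizol and biotin labelled, per the labels' protocols. Heart and lung arrays have different medians (3.25 to 3.37 and 4.09 to 4.19) and lowest values (-0.22 to -0.20 and 0.52 to 0.56), so each tissue was treated as normalized apart and levels were not compared across tissues. Of the probe sets 34945 had 1 gene symbol, 932 several and 9160 none; those with 1 gave 18193 genes. All 42 collagen symbols were found in RefSeq, and 27 of these genes had several probe sets.

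Genes above 4 in at least 3 arrays of a tissue were tested with limma 3.58.1 in R 4.3.3, with 4 group means over 12 arrays, eBayes and p-values adjusted after Benjamini and Hochberg across the 9962 genes of the heart or the 11600 of the lung. The heart and lung difference was fitted over 24 arrays and 12318 genes. The filter left just inside Col9a1 (third-highest array 4.02), Col18a1 (4.04), Col9a3 (4.07) and Col12a1 (4.24) and just outside Col4a6 (3.94) and Col24a1 (3.62) in heart, and just inside Col5a3 (4.04) and Col7a1 (4.08) and just outside Col9a3 (3.64) and Col6a4 (3.55) in lung. Named were all called members, 10 fixed collagen genes, and the 3 of smallest p where none was called; values of every array were given for the 2 largest called changes of a class and for Col1a1 and Col3a1, with Col4a6, Col12a1 and Col17a1 in lung, and the Col14a1 and Col6a3 values in heart, chosen after their values were seen. The members, classes, marker and pathway lists, tests and alternatives were chosen with earlier results of these data known. The averages over treatment or genotype and the comparison of the single dnCREB heart of high Xist were added after seeing the data. The fit was tested on simulated data. Arrays of a tissue correlated at 0.979 to 0.998 in heart and 0.951 to 0.996 in lung, with 0 identical pairs. The number of arrays limits the precision. Tables and figures were made with pandas 2.3.3 and matplotlib 3.10.9 in Python 3.11.15.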

Additional observations from a re-analysis of the deposited data

Results flagged for a closer look

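The genotype change differed between left ventricle and lung, in a test of the difference itself, for 6 collagen genes under PBS and 5 under PM. Under PBS the heart minus lung difference was 3.91 for Col8a1, 2.76 for Col4a4, 2.34 for Col4a3, 1.74 for Col5a2, 1.43 for Col16a1 and -1.15 for Col4a6. Under PM it was 2.97 for Col8a1, 2.75 for Col4a3, 2.22 for Col5a2, 1.87 for Col1a2 and 1.72 for Col5a1. Col8a1 kept its call under both treatments in all 33 other settings. Col5a1 lost its call in 20 of 33, Col4a3 and Col4a6 theirs under PBS in 13 each, and Col1a2 in 11. Wild-type hearts lay below the filter level for Col4a3, and both PBS heart groups did for Col4a6, so the sizes of these differences are not resolved. Xist class ran with genotype in the PBS hearts and otherwise in the PBS lungs, so it cannot be told apart from genotype in the PBS differences.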

How the results depend on the processing

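Over 54 gene results and their other settings, 1095 of 1252 values kept the call, 157 lost it and 0 reversed. In heart, Col8a1, Col1a1, Col5a2 and Col16a1 lost no call in either genotype comparison. Without the low-Xist dnCREB hearts the PM comparison called 17 genes. The heart and lung difference under PM called 3 genes with arrays centred on their median, with the mean of all probe sets or with no filter. No counts are given without the muscle-rich lungs, since a single lung was then left in the wild-type PM and in the dnCREB PBS group. PM in wild-type lung called 1 gene with the mean of all probe sets. The averaged lung PM comparison called 5 with the mean of all probe sets, 1 with no filter and 0 with the Xist covariate. The cause was not tested. Leaving out 1 array gave 8 to 15 genes for heart genotype under PBS, 9 to 15 under PM and 14 to 18 averaged, 3 to 8 and 3 to 10 for the tissue difference, 0 to 2 for PM in wild-type lung, 0 to 6 for averaged lung PM, and 0 in the other comparisons. With no filter 10 and 9 of 42 genes were higher in heart. Centring moved the heart split of all genes to 918 higher and 1187 lower under PBS and 1013 and 1353 under PM, against 1311 and 558 and 1132 and 910 as deposited, and the all-gene median to -0.13 under PBS; 10 and 11 collagen genes were then higher and 0 lower. Replicate numbers did not pair the arrays (deviations of same-numbered arrays correlated at -0.30 to 0.311 in heart and -0.332 to 0.334 in lung); with a replicate block the heart counts were 12 and 11 and the averaged lung PM count 4. Low signal limits Col4a3, Col12a1 and Col18a1 in wild-type heart and Col5a3, Col7a1 and Col15a1 in PBS lung.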
